A study of Mus musculus with 27 samples.

Results

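Slit-Robo and netrin guidance genes were followed in the embryonic mouse optic stalk (OS), the neuroepithelial link between eye cup and brain, which carries the axons of retinal ganglion cells (RGCs). The set was chosen by gene name, with earlier results of these data known, and holds 10 of the 55487 genes in the count table: the secreted ligands Slit1, Slit2, Slit3 and Ntn1, the Slit receptors Robo1 and Robo2, and the netrin receptors Dcc, Neo1, Unc5b and Unc5c. Counts above 10 in 3 or more of the 27 libraries were required for a fit, which 9 members met and Slit1 did not. On mm10, Slit2 (ENSMUSG00000031558.15) spans 47983138 to 48307733 of chromosome 5, Ntn1 (ENSMUSG00000020902.12) 68209364 to 68400823 of chromosome 11, and Robo1 (ENSMUSG00000022883.11) and Robo2 (ENSMUSG00000052516.19) lie 72308306 to 73046095 and 73891839 to 74411825 on chromosome 16. Counts cover whole genes and do not separate isoforms.

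Slit proteins are secreted repellents that bind Robo receptors on growth cones, and in the visual pathway they keep RGC axons within a narrow corridor on their way to the brain. Netrin-1, the product of Ntn1, is made by cells at the optic nerve head and along the stalk. It attracts axons that carry Dcc, which RGCs need in order to leave the eye, while receptors of the Unc5 family turn the response into repulsion. Neogenin, the product of Neo1, is a relative of Dcc that binds netrins and repulsive guidance molecules.

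The libraries came from E14 embryos on a C57BL/6J background. Dorsal OS, ventral OS and an axon-rich piece were taken by laser capture from frozen head sections of each embryo. The 5 mutants (Smarcc1-DCT-cKO) carried Smarcc1 loxP/loxP, the Dct-Cre transgene and the Z/EG reporter, and the 4 controls were littermates without Dct-Cre. Smarcc1 encodes the BAF155 subunit of the BAF chromatin remodelling complex. Dct-Cre is driven by a pigment cell gene and is active in the retinal pigment epithelium (RPE) and in the stalk, on the dorsal side first and throughout it later. The labels also put each embryo in batch A (1 control, 3 mutants) or batch B (3 controls, 2 mutants) and do not say what a batch is. Each library held 10.9 to 34 M counts (M, mega). Levels are given as CPM, the counts of a gene per M counts of its library, and a count of 0 allows a level of up to 3 counts, or 0.0883 to 0.275 CPM. These limits cover counting error only, since the cDNA was amplified by PCR without molecular identifiers. Smarcc1 itself lay between 75.9 and 289 CPM in dorsal controls and between 2.26 and 107 CPM in dorsal mutants, with overlap, and did not overlap in the ventral and axon pieces. Markers of RGCs summed to 1133 to 2883 CPM in axon pieces, 136 to 1656 CPM in ventral pieces and 44.6 to 1127 CPM in dorsal pieces. Nefm, with means of 957 CPM in controls and 1290 CPM in mutants, made up most of the axon sum. The markers did not all go the same way. In both genotypes Nefm and Sncg had higher means in axon than in dorsal pieces, and Tubb3, Isl1 and Elavl3 had lower means. The defining RGC factor gene Pou4f2 was at 0 in the axon and dorsal pieces of both genotypes.

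Slit2 and Robo2 are the ligand and the receptor whose dorsal levels separated the genotypes and whose annotated start lies in the table of promoter windows. Their windows (RefSeq, GRCm38.p6, 250 bases before to 50 after the start of transcription, read along the gene) are shown with CpG dinucleotides in capitals, since CpG-rich and CpG-poor starts are commonly treated as separate promoter classes.
Slit2, chr5:47982905-47983204, plus strand: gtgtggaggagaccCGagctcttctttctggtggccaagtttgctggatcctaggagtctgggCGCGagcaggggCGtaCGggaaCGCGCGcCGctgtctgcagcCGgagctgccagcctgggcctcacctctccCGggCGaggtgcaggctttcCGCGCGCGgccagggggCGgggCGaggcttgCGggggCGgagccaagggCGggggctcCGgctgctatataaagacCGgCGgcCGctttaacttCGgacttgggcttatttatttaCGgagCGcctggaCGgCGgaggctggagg
Robo2, chr16:74411776-74412075, minus strand: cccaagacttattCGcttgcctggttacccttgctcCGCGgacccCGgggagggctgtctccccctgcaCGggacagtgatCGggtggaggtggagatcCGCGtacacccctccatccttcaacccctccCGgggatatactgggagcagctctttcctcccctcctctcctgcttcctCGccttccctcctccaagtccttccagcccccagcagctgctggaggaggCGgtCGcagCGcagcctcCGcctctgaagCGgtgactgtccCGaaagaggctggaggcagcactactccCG

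The Slit2 window held 30 CpGs and 68% G and C, and the Robo2 window 17 CpGs and 65%, against medians of 7 CpGs and 52.7% over 32851 windows. Windows were found for 7 members, among them Robo1, Slit3, Neo1, Unc5b and Unc5c, and 3 of them belong to Robo2. Their CpG counts ran from 5 in an upstream Robo2 window to 54 for Neo1. The letters TATAAA, searched on both strands, occurred in the Slit2 window, 28 bases before the start, and in 13.6% of all windows. The letters CACGTG, an E-box bound by Mitf among others, occurred in 1 upstream Robo2 window and in 7.15% of all windows. Neither TAATCC, letters bound by Otx factors (7.06% of all windows), nor ACAAAG, letters bound by Sox factors (18.7%), occurred in any window of a member. A match is a description of the letters only.

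Ntn1 and Slit2 were the most abundant members. Over all 27 libraries the mean level was 228 CPM for Ntn1 and 194 CPM for Slit2, then 68.3 for Neo1, 57.4 for Robo1, 31.6 for Robo2, 16.6 for Unc5b, 11.8 for Unc5c, 6.31 for Dcc, 5.21 for Slit3 and 0.179 for Slit1. Per kilobase of exonic sequence, the scale on which different genes can be compared, Ntn1 stood first at 36.3 CPM per kb, followed by Neo1 at 7.83 and Slit2 at 7.63, whose order turned when the longest coding transcript was used as the length. Slit2, Ntn1 and Robo1 had counts in all 27 libraries and Neo1 in 26. The others were patchy: Robo2 was at 0 in 7 libraries, Unc5b in 6, Unc5c in 8, Slit3 in 9, Dcc in 12 and Slit1 in 23. Among the 10 members, each with its 6 groups ordered by mean, 0 of the 50 neighbouring pairs of groups were apart by more than their mean ± SD ranges.

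**Figure D1:**
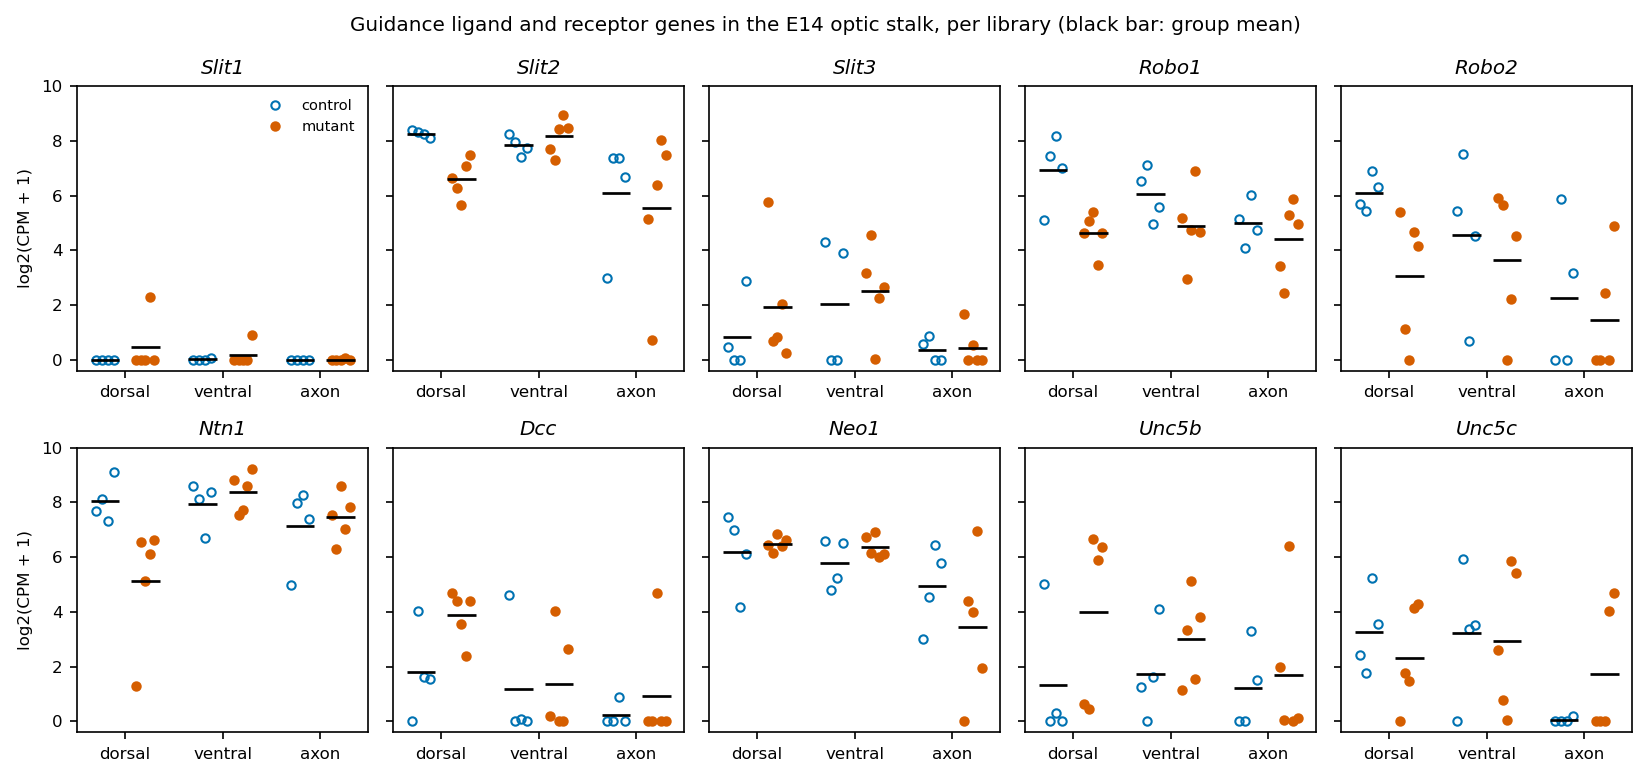
Level of each member in every library, as log2(CPM + 1), for control (open blue) and mutant (filled orange) pieces of the dorsal, ventral and axon regions, with a black bar at each group mean. Dorsal controls of Slit2 lie between 271 and 338 CPM, above every dorsal mutant, and the same separation is seen for Ntn1 and Robo2.

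The first comparison asks whether the genotypes differed within each region. In the dorsal OS, Slit2, Ntn1 and Robo2 were lower in every mutant than in every control, with mean levels 2.87, 5.03 and 4.31 times as high in controls. Robo1 was lower in 4 of 5 mutants than in every control. The netrin receptors Dcc and Unc5b had higher dorsal means in mutants, with overlap. By edgeR, the main test across all genes, 0 members were called in any region (0.0124% of genes in the dorsal region). Every dorsal mutant lay below every dorsal control for 3 of the 9 members that passed the count filter. The same held for 1.59% of the 16330 genes that passed it.

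Slit2, the most abundant Slit gene here, stood at 338, 320, 300.1 and 271 CPM in dorsal controls 1 to 4, and at 99.8, 76.1, 48.9, 133 and 177 CPM in dorsal mutants 1 to 5. The means were 307 ± 28.5 CPM (SD, n = 4) and 107 ± 49.99 CPM (SD, n = 5). The controls lay close together and the mutants spread below them. The exact permutation test of log2(CPM + 1) gave p = 0.0159, and 0.025, the smallest p possible there, when labels were permuted within batches. With batch as a term, edgeR fitted -1.42 ± 0.35 (SE, log2 fold change), at an unadjusted p of 0.00167 and an adjusted p of 0.672. The fitted value was -0.92 (unadjusted p = 0.066) without control 1. Control 1 was the only control of batch A, so without it batch A held mutants only. All permutation tests given here are two-sided.

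Ntn1, the netrin gene, stood at 204, 280.3, 157 and 545 CPM in dorsal controls and at 1.47, 93.7, 33.6, 68.1 and 97.8 CPM in dorsal mutants. The means were 296 ± 173 CPM (SD, n = 4) and 58.9 ± 41.1 CPM (SD, n = 5). The lowest control exceeded the highest mutant, and mutant 1 lay far below the other mutants. Permutation gave an exact p of 0.0238 and 0.025 within batches. The edgeR fit gave -2.04 ± 0.82 (SE, log2), with an unadjusted p of 0.0281 and an adjusted p of 0.918.

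The receptor gene Robo2 stood at 51.1, 42.7, 118 and 78.3 CPM in dorsal controls and at 41.4, 1.19, 0, 24.8 and 16.9 CPM in dorsal mutants. The means were 72.5 ± 33.9 CPM (SD, n = 4) and 16.8 ± 17.3 CPM (SD, n = 5). The margin between the groups was narrow, from 41.4 CPM in mutant 1 to 42.7 CPM in control 2. Permutation gave an exact p of 0.0317 and 0.025 within batches, and it became 0.0556 with a pseudocount of 0.1 CPM in place of 1. The edgeR fit gave -1.90 ± 1.5 (SE, log2), with an adjusted p of 1, and -3.50 (unadjusted p = 0.0475) without mutant 1.

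Robo1, the other Slit receptor gene, stood at 33.4, 174, 288 and 126.04 CPM in dorsal controls and at 23.9, 32.3, 41.4, 9.999 and 23.7 CPM in dorsal mutants. Control 1 lay within the range of the mutants and the other controls lay above it. The means were 155 ± 106 CPM (SD, n = 4) and 26.3 ± 11.6 CPM (SD, n = 5). Permutation gave an exact p of 0.0159 and 0.05 within batches. The edgeR fit gave -2.47 ± 0.96 (SE, log2), with an unadjusted p of 0.0247 and an adjusted p of 0.918. The fitted value was -3.53 without control 1 and -1.53 (unadjusted p = 0.155) without mutant 4.

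The netrin receptor genes did not share this separation. Dcc stood at 0, 15.4, 2.07 and 1.95 CPM in dorsal controls and at 25.0, 20.03, 10.9, 4.21 and 20.3 CPM in dorsal mutants. Control 2 lay within the mutants and the other controls lay below them, and permutation gave an exact p of 0.0556. Unc5b, best known from endothelial cells, stood at 31.1, 0, 0.236 and 0 CPM in dorsal controls and at 0.550, 0.358, 100.3, 58.7 and 81.4 CPM in dorsal mutants. Its mutants were 2 low and 3 high libraries, and permutation gave an exact p of 0.214. Neo1 had dorsal means of 96.3 ± 68.0 CPM in controls (SD, n = 4) and 90.2 ± 16.4 CPM in mutants (SD, n = 5), with overlap. Unc5c had 13.5 ± 15.7 CPM (SD, n = 4) and 7.82 ± 8.88 CPM (SD, n = 5), also with overlap.

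**Figure D2:**
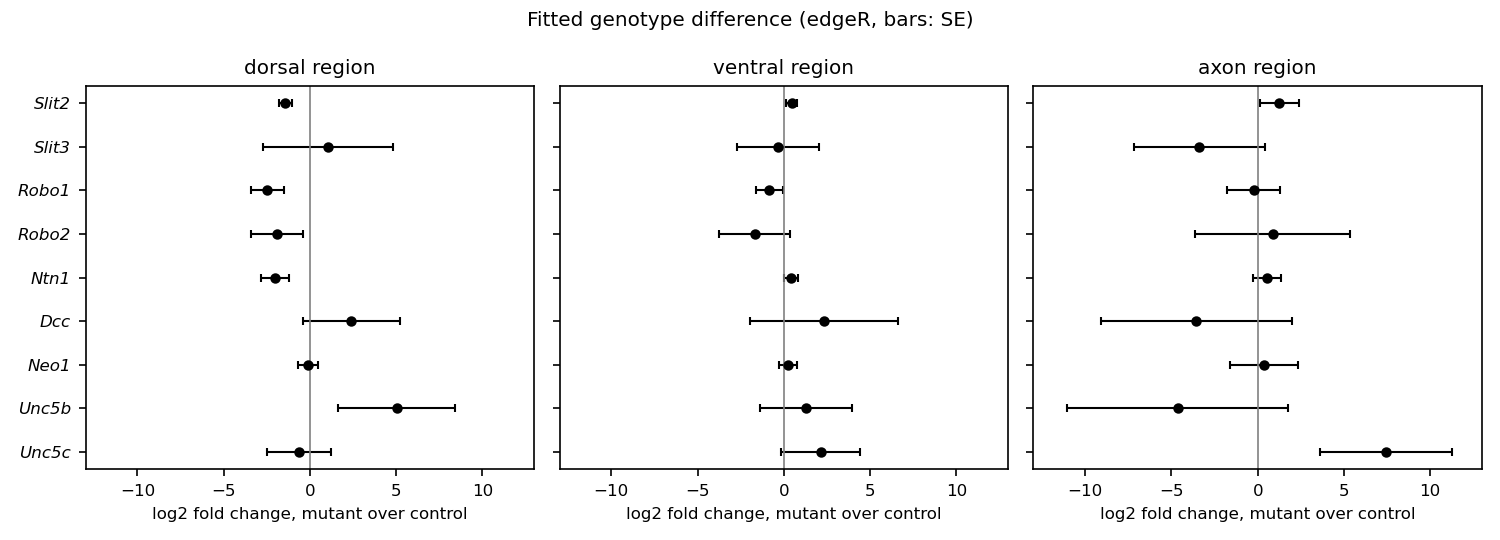
Fitted log2 fold change of mutant over control for the 9 members that could be fitted, in the dorsal, ventral and axon regions, with bars of 1 SE (edgeR, batch as a term). In the dorsal region Slit2, Ntn1 and Robo1 lie below 0 by more than 2 SE, and the wide bars belong to members with libraries at 0.

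In the dorsal region edgeR called 0.0124% of the genes tested and 0 of the 9 members fitted, while 5.35% of genes and 3 members (Slit2, Robo1 and Ntn1) had an unadjusted p under 0.05. DESeq2, run as an alternative, called Slit2 (adjusted p = 0.0085) and Robo1 (adjusted p = 0.0192), and 3.3% of all genes tested. Without the count filter edgeR called Ntn1 (adjusted p = 0.0415) and 0.385% of genes. Over the 30 exact permutation tests of 10 members in 3 regions, 4 had p under 0.05, all in the dorsal region. The same test gave p under 0.05 to 7.58% of the 16330 genes in the dorsal, 4.07% in the ventral and 4.51% in the axon region. The count of members without overlap in either direction stayed at 3 or 4 when 1 dorsal library was left out, except that it was 5, with Robo1 and Unc5b added, without control 1. The share of all genes without overlap in either direction also rose, from 2.89% with all 9 libraries to between 3.83% and 5.98%, the last without control 1.

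Marker lists, written with earlier results of these data known, were also compared between the genotypes in dorsal pieces. Over all genes tested, 48.6% were fitted higher in dorsal mutants. Lists of RGC, endothelial, erythroid, retinal progenitor and microglia genes overlapped between the genotypes, with an exact p of 0.151 to 0.833 by permutation. A list of 11 mesenchyme genes had a lower mean in mutants for 11 of 11 genes, and its summed level was 1160 to 10389 CPM in dorsal controls and 55.6 to 373 CPM in dorsal mutants. A list of 10 stalk and astrocyte progenitor genes had a lower mean in mutants for 9, with summed levels of 1299 to 1715 and 402 to 828 CPM. Both lists separated the genotypes, each with an exact p of 0.00794 by permutation, the smallest this design allows. A list of 11 melanin and RPE genes had a higher mean in mutants for 10, with summed levels of 43.5 to 5224 and 3250 to 12689 CPM and an exact p of 0.0397 by permutation. In the ventral and axon pieces none of these 3 lists separated the genotypes. No gene of the mesenchyme or stalk list was at 0 throughout a dorsal group. The part of these lists in the levels of Slit2, Ntn1, Robo1 and Robo2 was not tested, and in tissue pieces fewer cells of a type and less RNA per cell cannot be told apart.

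**Figure D3:**
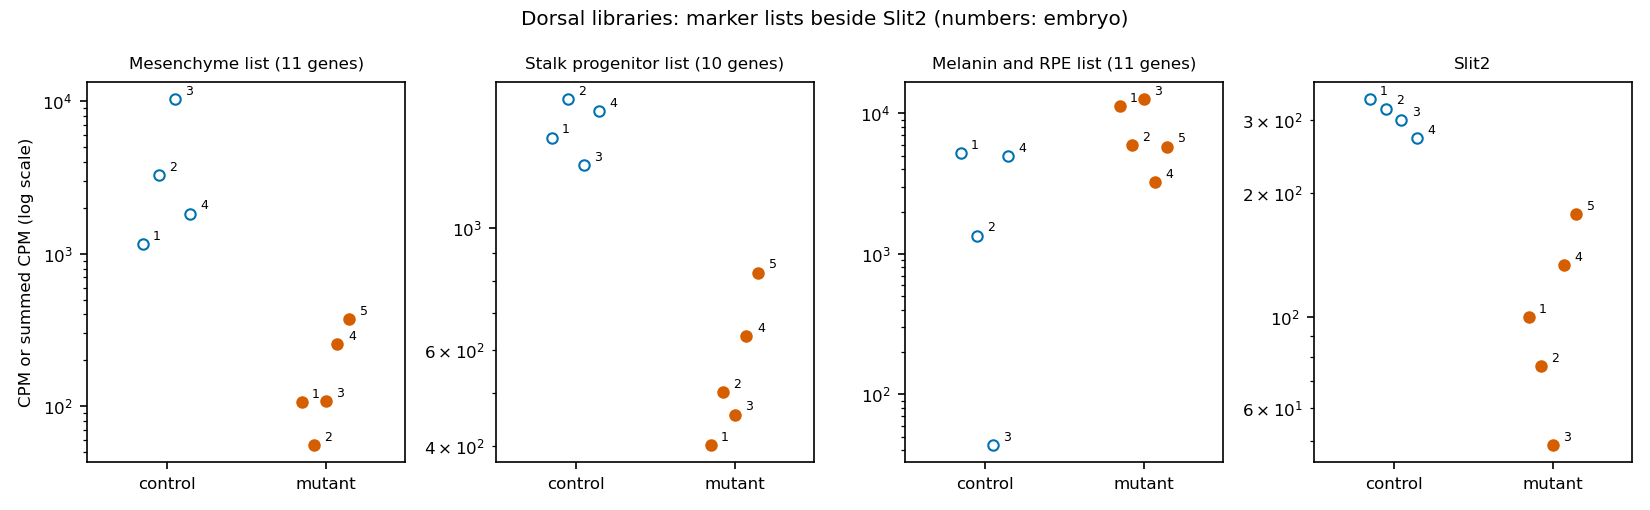
Summed CPM of the mesenchyme, stalk progenitor and melanin lists, and CPM of Slit2, in the 9 dorsal libraries (log scale, with the embryo number beside each point). The mesenchyme sums of the mutants, 55.6 to 373 CPM, lie below those of the controls, 1160 to 10389 CPM, as the Slit2 levels do.

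In the ventral OS, where the same embryos were sampled, the ligands did not lie lower in mutants. Slit2 was at 302, 247, 168 and 211 CPM in the ventral pieces of controls and at 207, 158, 343, 495 and 350.4 CPM in ventral mutants. Ntn1 was at 387, 279, 103 and 333 CPM in the ventral pieces of controls and at 452, 184, 208, 383 and 589 CPM in ventral mutants. Both genes overlapped between the genotypes, with exact permutation p of 0.389 and 0.468. Robo1 had ventral means of 76.2 ± 47.9 CPM in controls (SD, n = 4) and 42.3 ± 43.9 CPM in mutants (SD, n = 5). Robo2 had 61.7 ± 81.7 CPM (SD, n = 4) and 26.7 ± 26.6 CPM (SD, n = 5), and both receptors overlapped. All mutants lay below all controls for 0 members and for 0.698% of genes. In this region edgeR called 0 of 16139 genes tested (0%) and 0 members, with an unadjusted p under 0.05 for 3.19% of genes and 0 members. DESeq2 and limma voom called 0 members there, and 2.12% and 0.0372% of genes.

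In the axon pieces Slit2 stood at 6.95, 164, 164 and 103 CPM in controls and at 34.4, 0.639, 83.0, 262 and 177 CPM in mutants. Ntn1 stood at 30.4, 247, 309 and 166 CPM in controls and at 182, 78.3, 385, 129.8 and 226 CPM in mutants. The genotypes overlapped for all members, while all mutants lay below all controls for 0.955% of genes. Here edgeR called 0 of 14977 genes (0%) and 0 members, with an unadjusted p under 0.05 for 3.55% of genes and 0 members. DESeq2 and limma voom called 0 members, and 8.27% and 0.3% of genes. Unc5c, a gene of a repulsive netrin receptor, was at or under 3 counts in all 4 axon controls and at 0, 0, 0, 15.2 and 24.9 CPM in axon mutants.

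The next comparison asks whether the genotype difference itself differed between regions. It was tested within embryos, as dorsal minus ventral log2(CPM + 1). Pieces of 1 number and genotype were taken as 1 embryo, which the labels do not state outright. For Slit2 this difference averaged 0.43 ± 0.29 (SD, n = 4) in controls, all 4 of them above 0, and -1.55 ± 0.79 (SD, n = 5) in mutants, all 5 below 0. The exact permutation test over embryos gave p = 0.00794, the smallest this design allows. For Ntn1 the averages were 0.10 ± 0.75 (SD, n = 4) and -3.23 ± 2.50 (SD, n = 5), without overlap, at an exact p of 0.0159 by permutation. Lower values in all mutants than in all controls were found for 0.821% of the 16330 genes. The edgeR interaction gave -1.82 ± 1.11 (SE, log2) for Slit2, with an adjusted p of 1, and -2.66 ± 1.14 (SE, log2) for Ntn1, with an unadjusted p of 0.0302 and an adjusted p of 1. It called 0.00612% of genes and 0 members, and gave an unadjusted p under 0.05 to 2.29% of genes and 1 member. The permutation test was added after the data were seen, and it does not carry batch as a term.

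For Unc5c the axon minus dorsal difference averaged -3.20 ± 1.5 (SD, n = 4) in controls and -0.58 ± 0.97 (SD, n = 5) in mutants, without overlap, at an exact p of 0.0159 by permutation. Higher values in all mutants than in all controls were found for 0.649% of genes. The edgeR interaction for Unc5c had an adjusted p of 0.989, and it called 0.0122% of genes and 0 members between axon and dorsal, and 0% and 0 members between axon and ventral. Unadjusted p under 0.05 was given there to 4.95% and 3.89% of genes and to 0 members. Of the 27 remaining interactions of the 10 members, none had an exact permutation p under 0.05. Over all genes this test gave p under 0.05 to 5.75% between dorsal and ventral, 6.02% between axon and dorsal and 4.12% between axon and ventral.

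**Figure D4:**
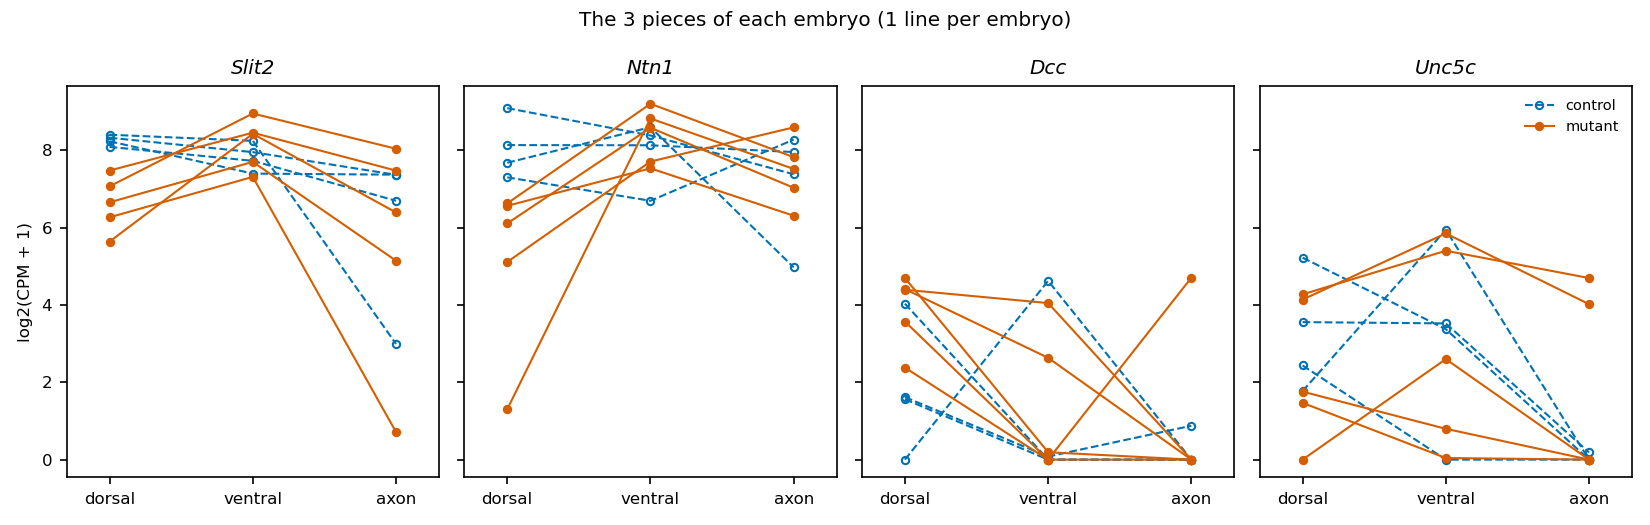
Levels of Slit2, Ntn1, Dcc and Unc5c in the dorsal, ventral and axon pieces of each embryo, as log2(CPM + 1), with 1 line per embryo (dashed blue, control; solid orange, mutant). Slit2 goes up from dorsal to ventral in all 5 mutants and down in all 4 controls, and it is lower in the axon than in the ventral piece of all 9 embryos.

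Regions were also compared directly, with the embryo as a block. Pieces of 1 number and genotype were again taken as 1 embryo. Slit2 was lower in the axon than in the ventral piece in 9 of 9 embryos. Such an order was found for 1.24% of the 16330 genes. The mean difference was -2.22 ± 2.25 in log2(CPM + 1) (SD, n = 9), with an exact sign-flip permutation p of 0.00391, the smallest that 9 embryos allow. The edgeR fit gave -1.57 ± 0.59 (SE, log2), with an unadjusted p of 0.0140 and an adjusted p of 0.242. Over all genes tested the median fitted axon against ventral difference was -0.79, so a value below 0 was common in this comparison.

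Unc5c had counts in ventral pieces of both genotypes, at 0, 60.6, 9.37 and 10.5 CPM in controls and 5.06, 0.738, 0.0294, 56.7 and 41.3 CPM in mutants. In dorsal pieces it stood at 4.41, 2.42, 36.4 and 10.8 CPM in controls and 0, 2.38, 1.77, 16.6 and 18.3 CPM in mutants. The axon pieces of the 4 controls were all at the floor. Against a level of 3 counts, the dorsal mean of controls was 83.3 times and the ventral mean 124 times as high. These are not lower limits, since axon control 4 itself held 3 counts. In addition, 1 library carried most of each mean, at 36.4 CPM in dorsal and 60.6 CPM in ventral controls. In controls alone the exact sign-flip permutation gave p = 0.125 for axon against dorsal and p = 0.25 for axon against ventral. Over all embryos Unc5c was lower in the axon than in the ventral piece in 8 of 9 (exact permutation p = 0.00781). Control 1 was at 0 in both pieces, and in mutant 3 the order rested on 1 ventral count against 0, within the floor. Unc5c was lower in the axon than in the dorsal piece in 7 of 9, equal at 0 in 1 and higher in 1 (exact permutation p = 0.0234). The edgeR fits gave -5.43 ± 2.20 (SE, log2) against ventral, adjusted p = 0.281, and -6.22 ± 2.36 against dorsal, adjusted p = 0.206. The newer edgeR method gave -1.91 and -1.14. Of the exonic bases of Unc5c, 0.617% are shared with the antisense gene Gm15688.

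Dcc, the attractive netrin receptor gene, had more than 3 counts in 8 of 9 dorsal pieces, 3 of 9 ventral pieces and 2 of 9 axon pieces. In axon pieces it stood at 0, 0, 0.835 and 0 CPM in controls and at 0, 0, 25.1, 0 and 0 CPM in mutants. In ventral pieces it stood at 23.7, 0, 0.0571 and 0 CPM in controls and at 0.142, 15.6, 0, 0 and 5.2 CPM in mutants. It was lower in the axon than in the dorsal piece in 7 of 9 embryos, equal at 0 in 1 and higher in 1 (exact permutation p = 0.0234). The edgeR fit gave -7.87 ± 3.33 (SE, log2), with an unadjusted p of 0.0269 and an adjusted p of 0.256, and the newer edgeR method gave -1.98.

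For 2 further pairs the exact permutation p over the 9 embryos was under 0.05. Slit3 was lower in the axon than in the ventral piece in 6 embryos and higher in 2 (p = 0.0313, exact). Ntn1 was lower in the dorsal than in the ventral piece in 6 embryos, the 5 mutants and 1 control, and higher in 3 controls (p = 0.0469, exact). This made 6 of 30 region tests with p under 0.05, of which 1 was between dorsal and ventral, 2 between axon and dorsal and 3 between axon and ventral. The same test gave p under 0.05 to 7.67%, 13.9% and 14.3% of all genes for these pairs. Among the 9 members fitted, Ntn1 alone had a fitted level higher in axon than in dorsal pieces (0.69 ± 0.64, SE, log2, adjusted p = 0.658), and in controls alone the fitted value was -0.72 ± 0.68.

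No member was called by edgeR between regions. Over all embryos edgeR called 0.049% of genes between dorsal and ventral, 1.58% between axon and dorsal and 1.04% between axon and ventral. In controls alone it called 0%, 0.0126% and 0%, with an unadjusted p under 0.05 for 2.54%, 3.93% and 2.64% of genes and for 0, 1 (Unc5c) and 0 members. An unadjusted p under 0.05 over all embryos was given to 0, 2 (Unc5c and Dcc) and 2 (Slit2 and Unc5c) of the 9 members, beside 5.92%, 15.7% and 13.7% of all genes. The median fitted difference of the 9 members was 0.44, -2.16 and -1.57 on the log2 scale, beside -0.04, -0.76 and -0.79 over all genes. DESeq2 called Dcc (adjusted p = 4.4e-06) and Unc5c (adjusted p = 7.7e-05) between axon and dorsal, where it called 22.7% of all genes. Between axon and ventral it called Slit2, Slit3, Dcc and Unc5c, and 21.1% of all genes. In controls alone it called Robo2 and Unc5c between axon and dorsal (6.52% of genes) and Unc5c between axon and ventral (6.16%). Limma voom called Unc5c between axon and ventral over all embryos, and 3.51% of genes.

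Slit1 and Slit3 were the scarce ligand genes. Slit1, known from RGCs and other neurons, was at 0 in all dorsal and axon controls. It exceeded 3 counts in only 2 libraries, dorsal mutant 4 at 3.86 CPM and ventral mutant 5 at 0.857 CPM. Slit3 reached 53.1 CPM in dorsal mutant 1, and its median over all libraries was 0.501 CPM. Its axon levels stayed at or under 2.23 CPM.

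Other genes of the 2 pathways and of related gene families were counted from lists of 18 further ligands and receptors and 22 cytoplasmic partners. Of the 14 and 22 that could be fitted in the dorsal genotype comparison, none was called. In the first list 10 were fitted lower and 4 higher in mutants (median -0.61, log2), and in the second 13 lower and 9 higher (median -0.06), beside a median of -0.04 over all genes and -0.63 over the members. The lowest unadjusted p there belonged to Trio, which encodes a guanine nucleotide exchange factor downstream of Dcc, with 137 ± 43.1 CPM in controls (SD, n = 4) and 48.1 ± 21.5 CPM in mutants (SD, n = 5), adjusted p = 0.918 by edgeR. It was followed by Rac1, the GTPase that Trio activates, with 132 ± 26.4 and 48.0 ± 25.9 CPM and the same adjusted p. Of the exonic bases of Rac1, 51.4% are shared with Daglb on the opposite strand, so its counts are uncertain. Between axon and dorsal pieces over all embryos, 1 of 14 receptors and ligands and 1 of 22 partners were called, both lower in axon pieces. Over all genes edgeR called 1.58% there, and the median fitted difference was -0.76 (log2). Ntng1, which encodes the membrane-anchored netrin-G1, had a mean of 8.58 ± 14.7 CPM in dorsal and 0.117 ± 0.352 CPM in axon pieces (SD, n = 9; edgeR adjusted p = 0.0344). Usp33, a deubiquitinase that binds Robo1, had 11.8 ± 15 and 0.0932 ± 0.258 CPM (SD, n = 9, edgeR adjusted p = 0.0423). Few libraries carried these dorsal means. The dorsal median and maximum were 3.95 and 45.7 CPM for Ntng1 and 2.3 and 41.5 CPM for Usp33. Unnamed loci on the other strand overlap 24.4% of the exonic sequence of Usp33.

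Across the 27 libraries, the genes most like Ntn1 by Pearson correlation of log2 CPM were Zic1 (r = 0.889), a stalk transcription factor gene, and Ednrb (r = 0.854), an endothelin receptor gene. Those most like Slit2 were Cpe (r = 0.906), a carboxypeptidase gene, and Ypel5 (r = 0.881). For Dcc they were Mab21l1 (r = 0.732) and Mrpl46 (r = 0.712), and for Robo2 Abhd6 (r = 0.803) and Brca1 (r = 0.783). The libraries share embryos, regions and batches, and scarce genes share libraries at 0, so these values are descriptions. Among the members themselves the highest correlations of Slit2 were with Robo1 (r = 0.521) and Robo2 (r = 0.512), and with Ntn1 it was 0.386.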

How the data were processed

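The deposited values are unscaled counts per gene. The authors ran Seq2Science on single-end reads of PCR-amplified Geo-seq cDNA, with STAR (mm10) for alignment and HTSeq for counting; tool versions, annotation release and strand setting are not given in the sources used here. Symbols and gene models came from GENCODE release M21, which matched 55227 of 55487 identifiers. Groups, batch and numbers came from the labels. Pieces with 1 number and genotype were taken as 1 embryo, which the labels do not state outright. Such pieces correlated at a median of 0.0321 (range -0.0195 to 0.111), and pieces of other numbers at -0.00967 (range -0.0807 to 0.0769). The ranges overlapped and pieces with 1 number also share a batch, so these values cannot settle the pairing.

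Genes were tested with edgeR 4.0.16 (R 4.3.3; quasi-likelihood F-test, TMM, robust, legacy setting) on the 16330 genes whose count exceeded 10 in 3 or more of 27 libraries. A gene was called where its adjusted p (Benjamini-Hochberg) was under 0.05 and its log2 fold change beyond 0.58 either way. Genotype fits held 9 libraries with batch as a term, and region and interaction fits held the embryo as a block. DESeq2 1.42.0 and limma 3.58.1 were alternatives. SEs derived from F are approximate. Fits were tested on simulated data, and 0 pairs of libraries were identical.

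All 10 members are named, with fitted values mainly where the unadjusted p was under 0.05 or genotypes did not overlap. Other pathway and related genes are named where called or at the lowest p, and similar genes by the 2 highest correlations. The members and lists were chosen with earlier results of these data known.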

Additional observations from a re-analysis of the deposited data

Results flagged for a closer look

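Of 58 groups of 4 or 5 libraries tested with Dixon's rule, 12 held a library that stood apart from its group. The rule's rate of about 1 in 20 by chance does not hold for groups mostly at 0. There a single library with counts is flagged at any level, so the 12 cannot be read as an excess. In Slit1 these were the few libraries with counts: dorsal mutant 4 (3.86 CPM), ventral control 4 (0.0621 CPM), ventral mutant 5 (0.857 CPM) and axon mutant 4 (0.0584 CPM). In Dcc they were ventral control 1 (23.7 CPM), axon control 3 (0.835 CPM) and axon mutant 3 (25.1 CPM). In the other members they were Slit3 in dorsal control 4 (6.46 CPM), Unc5b in dorsal control 1 (31.1 CPM) and Unc5c in axon control 4 (0.137 CPM). Those 10 libraries were high against groups at or near 0. Slit1 had 1 count in ventral control 4 and in axon mutant 4, and Unc5c had 3 counts in axon control 4, all within the floor. The remaining 2 were low: Slit2 in axon control 1 (6.95 CPM) and Ntn1 in dorsal mutant 1 (1.47 CPM).

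The change of the genotype difference between regions had an exact permutation p under 0.05 for 3 of the 10 members. Each member was tested for 3 pairs of regions. For Slit2 the change was -1.98 on the log2 scale between dorsal and ventral (p = 0.00794, exact, two-sided). For Ntn1 it was -3.33 between dorsal and ventral (p = 0.0159, exact, two-sided), and for Unc5c 2.62 between axon and dorsal (p = 0.0159, exact, two-sided). The axon pieces of controls were all at the floor for Unc5c. None of the 3 was called by the edgeR interaction. Over all genes the permutation test gave p under 0.05 to 5.75% between dorsal and ventral and 6.02% between axon and dorsal. Between axon and ventral the share was 4.12%. The permutation test was added after the data were seen and does not carry batch as a term.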

How the results depend on the processing

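The count of members called was 0 in each edgeR comparison and stayed 0 under RLE scaling, the stricter filter, the newer edgeR method, without the batch term, in batch B alone (genotype comparisons only) and without each library or embryo in turn. It moved with the test. DESeq2 called 2 members between the genotypes in the dorsal region, 2 between axon and dorsal and 4 between axon and ventral over all embryos, and 2 and 1 in controls alone for the same pairs. Limma voom called 1 (Unc5c, axon against ventral, all embryos), and edgeR without the count filter called 1 between the genotypes (Ntn1, dorsal). Over all genes DESeq2 called 3.3%, 22.7%, 21.1%, 6.52% and 6.16% in these 5 comparisons, limma voom 3.51% and unfiltered edgeR 0.385%. In the dorsal genotype comparison DESeq2 called 532 genes and edgeR 2. None of the 10 fitted differences of members that were followed through the alternatives changed sign. They were picked for an unadjusted p under 0.05 or no overlap in these data, so a stable sign was likely beforehand. Sizes moved. Between axon and dorsal over all embryos Dcc ran from -10.6 to -1.98 and Unc5c from -7.48 to -1.14 (log2). Between axon and ventral Unc5c ran from -6.69 to -1.91. In the dorsal genotype comparison Robo1 ran from -3.53 to -1.53, Robo2 from -3.66 to -1.66, Ntn1 from -3.12 to -1.78 and Slit2 from -1.84 to -0.92. The count of members without overlap in the dorsal region ranged from 3 to 5 when 1 library was left out, beside 3.83% to 5.98% of all genes. With the replicate number as a block, 0 members were called between the genotypes, and 0 were called between regions with no replicate block. Equal numbers do not mark a control and a mutant of 1 batch, since control 2 was in batch B and mutant 2 in batch A. Same-numbered control and mutant pieces correlated at a median of -0.0133, which cannot settle a pairing. With 4 and 5 libraries a group, PCR-amplified counts and members at 0 in 6 to 23 libraries, the data leave wide errors on the scarce members.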
